A study of Mus musculus with 3 samples.

Results

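The T-box transcription factor genes Tbx1, Tbx2, Tbx3, Tbx4, Tbx5, Tbx15, Tbx18 and Tbx20 were followed across the primordia of the mouse gut. These 8 genes were taken by name, through the RefSeq transcript that each array probe was designed on, out of 16998 genes with a named probe, and all 8 were found with 13 probes in all. The samples were the esophagus, the stomach and the intestine of ICR mouse embryos at E11.5, with no mutation or treatment, and each organ was hybridised to 1 single-colour Agilent array. The organ was read from the tissue label, since the extraction text names the stomach for every sample, and the number of embryos behind each RNA was not given in the sources used here. With 1 array per organ there is no replicate check and no test, and that number limits the precision of every value.

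T-box genes encode transcription factors that share a DNA-binding domain, the T-box, and differ in whether they activate or repress transcription. Vertebrate T-box genes fall into subfamilies by descent. Tbx2, Tbx3, Tbx4 and Tbx5 form one of them, in which Tbx2 and Tbx3 act mainly as repressors and Tbx4 and Tbx5 as activators needed in limb, lung and, for Tbx5, heart development. Tbx1, Tbx15, Tbx18 and Tbx20 belong to another subfamily, with roles in pharyngeal, skeletal, mesothelial and cardiac tissue. In the embryonic foregut, Tbx4 and Tbx5 are known from the mesenchyme around the trachea and lung buds, which lie next to the esophagus.

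Levels are given as log2 of the processed spot signal over the 75th percentile of the same array, so 0 stands for the 75th percentile, and a level describes 1 probe and is not compared between genes. Where the levels of a list are summed, the brightest probes weigh most. In the order esophagus, stomach, intestine, that percentile was 393, 334 and 1023 signal units, and 69.3%, 67.9% and 74.0% of spots were well above background. The dimmest probes counted as well above background had levels of −5.81, −5.84 and −6.97, in the same order. A marker of each organ was present on its own array, though not every listed marker was. Cdx2, the regulator of intestinal identity, stood at 1.85 in intestine and −4.37 in stomach and was not well above background in esophagus. Cdx1, also listed for intestinal epithelium, was not well above background in intestine and stood at −5.57 in stomach. The stomach array had the highest level of Barx1, a homeobox regulator of the stomach wall, at 4.43, with 0.87 in esophagus and −4.39 in intestine. The esophagus array, in which Trp63 of basal epithelium stood at 0.25, also carried genes of heart muscle, of skeletal muscle and of lung, whose values are given beside the T-box genes further on.

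Of the 8 T-box genes, 5 were at least 4-fold higher in esophagus than in each of the other organs, namely Tbx1, Tbx4, Tbx5, Tbx18 and Tbx20. Across all 14509 genes measured in at least 1 organ, 1.17% met the same rule. The 8 genes were chosen with earlier results of these data known, so setting them beside all genes is not a test. No T-box gene was at least 4-fold higher in stomach or in intestine than in both other organs, where 0.227% and 0.965% of genes were. Tbx2 and Tbx3 had levels above the 75th percentile in every organ and lay within 2-fold in all 3 comparisons. Tbx15 was close to background everywhere, and its 3 probes disagreed. In RNA of whole organs, fewer cells that express a gene and less RNA per cell cannot be told apart.

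**Figure D1:**
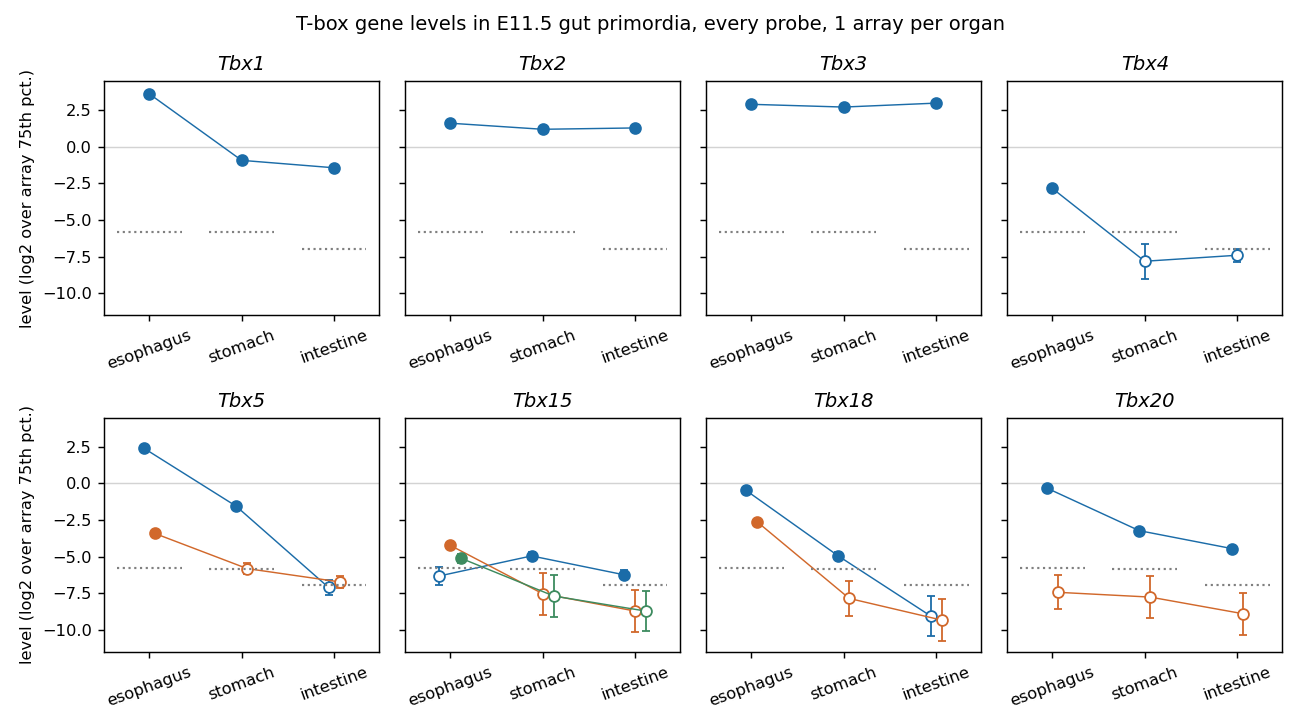
Level of each T-box gene in the 3 organs (log2 signal over the array's 75th percentile), 1 array per organ, with every probe of a gene in its own colour and error bars from the extraction software's error of the spot. Filled circles are well above background, open circles are not, and dotted lines mark the lowest level well above background on that array. Tbx2 and Tbx3 run level, while Tbx1, Tbx4, Tbx5, Tbx18 and Tbx20 are highest in esophagus.

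In the comparison of stomach with esophagus, 5 of the 8 T-box genes lay at least 4-fold lower in stomach, against 1.58% of 13740 genes, and 0 were at least 4-fold higher, against 0.684%. In the comparison of intestine with esophagus these 5 genes again lay at least 4-fold lower in intestine, against 3.7% of 14462 genes, and 0 were at least 4-fold higher, against 1.75%. These comparisons share the esophagus array, so a value peculiar to that array would enter both. Between intestine and stomach, 7 members entered, and 5 of them were measured on both arrays. The 2 members at least 4-fold lower in intestine, Tbx5 and Tbx18, were both bounds, against 1.24% of 14384 genes. None was at least 4-fold higher in intestine, against 1.38%. In the order of these 3 comparisons the members' median difference was −2.95, −4.13 and −1.22 log2 units, beside 0.15, 0.13 and −0.02 over all genes.

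**Figure D2:**
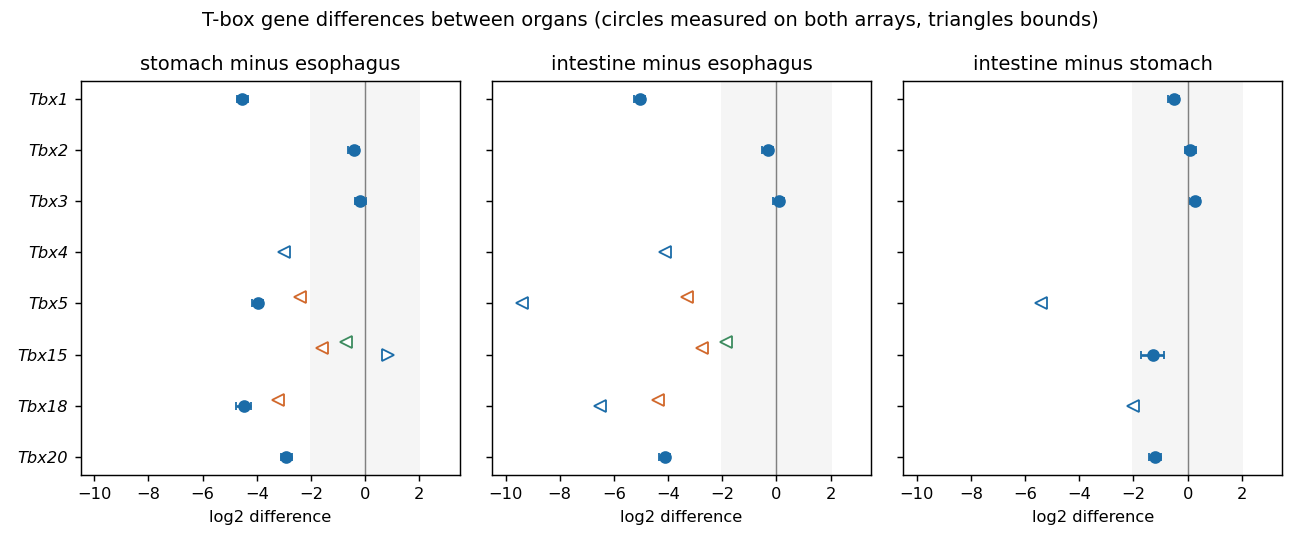
Log2 difference of each T-box gene in the 3 comparisons, with every probe in its own colour. Filled circles were well above background on both arrays and carry the combined spot error, open triangles are bounds where 1 array was not, and the shaded band is less than 4-fold. Tbx1, Tbx4, Tbx5, Tbx18 and Tbx20 lie left of the band in both comparisons with esophagus, by the probe used and, for Tbx5 and Tbx18, by the other probe too.

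The promoters of the genes that were highest in esophagus are shown as far as the RefSeq table held them, to put the sequence next to the expression pattern. They are the 250 bases before the start site in assembly GRCm38.p6, read 5′ to 3′ along the gene, and Tbx1 has 2 annotated start sites. Capitals mark CpG dinucleotides, which cluster in the promoters of many developmental regulators.
Tbx1 chr16:18588900-18589149 (- strand): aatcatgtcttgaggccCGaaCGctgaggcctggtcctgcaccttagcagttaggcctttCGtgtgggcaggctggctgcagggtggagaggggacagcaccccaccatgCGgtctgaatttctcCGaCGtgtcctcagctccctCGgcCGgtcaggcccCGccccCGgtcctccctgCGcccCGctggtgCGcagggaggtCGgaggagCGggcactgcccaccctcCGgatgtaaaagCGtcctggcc
Tbx1 chr16:18590672-18590921 (- strand): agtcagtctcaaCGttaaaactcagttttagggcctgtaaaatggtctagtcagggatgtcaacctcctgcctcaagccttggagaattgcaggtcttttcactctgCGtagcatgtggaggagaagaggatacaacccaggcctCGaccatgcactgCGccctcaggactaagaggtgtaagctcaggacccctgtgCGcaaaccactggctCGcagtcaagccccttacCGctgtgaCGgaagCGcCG
Tbx4 chr11:85896515-85896764 (+ strand): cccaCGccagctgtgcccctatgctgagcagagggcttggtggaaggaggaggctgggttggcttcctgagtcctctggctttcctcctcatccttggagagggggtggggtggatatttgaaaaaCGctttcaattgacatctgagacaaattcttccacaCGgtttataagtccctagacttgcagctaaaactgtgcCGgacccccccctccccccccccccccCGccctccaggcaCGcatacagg
Tbx18 chr9:87731261-87731510 (- strand): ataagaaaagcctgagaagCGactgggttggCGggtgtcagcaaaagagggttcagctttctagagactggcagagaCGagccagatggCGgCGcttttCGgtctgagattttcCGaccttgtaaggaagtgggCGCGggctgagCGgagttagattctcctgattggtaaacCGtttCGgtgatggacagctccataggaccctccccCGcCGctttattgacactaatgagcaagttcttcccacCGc
Tbx20 chr9:24774304-24774553 (- strand): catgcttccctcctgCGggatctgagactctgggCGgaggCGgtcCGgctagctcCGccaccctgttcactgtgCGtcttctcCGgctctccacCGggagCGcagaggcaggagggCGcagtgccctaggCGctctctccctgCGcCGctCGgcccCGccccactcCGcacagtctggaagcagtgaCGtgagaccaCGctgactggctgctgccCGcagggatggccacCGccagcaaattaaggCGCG

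These 5 windows held 17, 10, 6, 15 and 22 CpG dinucleotides in the order printed, against a median of 6 over 32536 such windows of all genes. The Tbx20 window exceeded 85.1% of windows, whereas that of Tbx4 was at the median. The core of the T-box recognition sequence, GGTGTG, was searched on both strands and was in 0 of the 5 windows and in 16.3% of all windows. TATAAA, the letters of the TATA box, also searched on both strands, was in 12.3% of all windows and in 1 of the 5. That match, in the Tbx4 window 85 bases before the start site, lies on the strand opposite to the gene and so is not read in the printed sequence. The absence of these letters from a 250-base window gives no information on binding elsewhere.

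Tbx1, the factor of pharyngeal endoderm and pharyngeal muscle progenitors, had the highest level of its probe in esophagus. The esophagus array gave 3.60, the stomach array −0.94 and the intestine array −1.44, each with a spot error of 0.14, and it was well above background on all 3 arrays. Esophagus therefore stood apart, and stomach and intestine lay close together. The difference was −4.54 ± 0.20 log2 units for stomach against esophagus (combined spot error, 1 spot per array), a 23.3-fold lower level, and only 25 of 13737 genes had a lower value. Against esophagus, intestine was 33.1-fold lower. Intestine and stomach differed by −0.51 ± 0.20, less than 2-fold, and this difference changed sign to 0.39 when arrays were scaled to their spike-in controls.

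Tbx5 and Tbx4, the activators of the other subfamily, also peaked in esophagus. Tbx5 stood at 2.40 in esophagus and −1.56 in stomach and was not well above background in intestine, where its signal of 7.45 units was below the lowest signal counted as measured, 8.17. The levels thus stepped down from esophagus to stomach and from stomach to intestine, with no overlap of the spot errors. Stomach was 15.6-fold lower than esophagus (−3.96 ± 0.21), and intestine was at least 663-fold lower than esophagus and at least 42.6-fold lower than stomach. Only 1 of 13905 genes had a lower value for intestine against esophagus. A second Tbx5 probe on the same transcript was much dimmer, at −3.42 in esophagus, and was not well above background in stomach or intestine. Its dim signals put stomach 5.28-fold and intestine 9.90-fold lower than esophagus. These folds are not lower limits, since each dim spot had an error of 0.39 log2 units. Both probes put esophagus highest, while the size of the difference depends on the probe. It depends on the background correction too, since normexp correction reduced the bounds of the first probe to −5.95 log2 units against esophagus and −2.66 against stomach, from −9.37 and −5.41, and gave −3.29 for stomach against esophagus.

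Tbx4, the close relative of Tbx5 best known from hindlimb and lung mesenchyme, was measured in esophagus alone. The esophagus signal was 54.6 units (level −2.85 ± 0.15), whereas stomach with 1.48 units and intestine with 6.02 units were not well above background. Stomach was at least 7.93-fold and intestine at least 17.4-fold lower than esophagus. Stomach and intestine could not be compared. With normexp background correction and an offset of 50 units, the Tbx4 difference for stomach against esophagus was −0.85 and no longer reached 4-fold, and that for intestine against esophagus was −2.10.

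Tbx2 and Tbx3, the repressors of that subfamily, showed no comparable step. Tbx3 stood at 2.89 in esophagus, 2.70 in stomach and 2.97 in intestine, and it differed by −0.19 (stomach against esophagus), 0.08 (intestine against esophagus) and 0.27 log2 units (intestine against stomach), each with an error of 0.20. Tbx2 stood at 1.60 in esophagus, 1.18 in stomach and 1.27 in intestine, and its differences, in the same order as those of Tbx3, were −0.41, −0.32 and 0.09. Neither gene has an order among the organs that holds under all scalings. The Tbx2 difference for intestine against esophagus became 0.17 with median centring and 0.39 with spike-in scaling, and the Tbx3 difference for stomach against esophagus became 0.02 with median centring. With spike-in scaling Tbx3 was higher in intestine than in stomach by 1.17, past 2-fold, and Tbx2 by 0.99. In the RefSeq gene order Tbx2 is the neighbour of Tbx4 on chromosome 11 and Tbx3 the neighbour of Tbx5 on chromosome 5. Within each linked pair, 1 gene was within 2-fold in the comparisons with esophagus and the other was at least 4-fold lower in stomach and in intestine, with 1 exception among the settings that gave a value, the normexp value of Tbx4 given above.

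Tbx18, a gene of mesothelium, epicardium and ureteric mesenchyme, stood at −0.47 ± 0.14 in esophagus and −4.95 ± 0.23 in stomach and was not well above background in intestine. Stomach was 22.3-fold lower than esophagus (−4.48 ± 0.27), and intestine was at least 90.6-fold lower than esophagus. The stomach signal was 10.8 units, as dim as that of Tbx15 in stomach, so the values that involve stomach rest on a dim spot. The bound for intestine against stomach, at least 4.06-fold, was just past the 4-fold line, and it fell short of it with median centring (−1.73), quantile normalization (−1.77), spike-in scaling (−1.12) and normexp correction (−1.60). The second Tbx18 probe was measured in esophagus alone, at −2.61, with bounds of at least 9.38-fold for stomach and at least 20.6-fold for intestine. Both probes therefore placed esophagus highest. With normexp correction the first probe gave −2.11 for stomach against esophagus, and its bound for intestine against esophagus shrank from −6.50 to −3.71.

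Tbx15, the relative of Tbx18 with a role in skeletal development, was near the background on every array. On the probe with the highest mean it stood at −4.95 in stomach and −6.24 in intestine and was not well above background in esophagus, and stomach exceeded intestine 2.44-fold. The other 2 probes, on the same transcript, were well above background in esophagus alone, at −4.23 and −5.12. By these, stomach was at least 3.04-fold and 1.64-fold lower than esophagus, and intestine at least 6.67-fold and 3.60-fold lower. The signals behind the values above background were 10.8 to 20.9 units, and averaging the probes turned the stomach difference from a bound of 0.85 to −0.49, so no order of the organs can be read for Tbx15.

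Tbx20, a regulator of heart and of cranial motor neurons, was measured on all arrays by the probe for transcript NM_194263. It stood at −0.32 ± 0.14 in esophagus, −3.23 ± 0.16 in stomach and −4.45 ± 0.16 in intestine. These levels were lower in that order, beyond the error of single spots. Stomach was 7.49-fold and intestine 17.5-fold lower than esophagus, and intestine was 2.33-fold lower than stomach. With normexp correction the difference for stomach against esophagus shrank from −2.90 to −1.73 and no longer reached 4-fold, and that for intestine against esophagus shrank from −4.13 to −2.89. With spike-in scaling the difference for intestine against stomach shrank from −1.22 to −0.32, close to its error of 0.22. The other probe, designed on transcript NM_020496, was not well above background in any organ, with signals of 2.27, 1.54 and 2.15 units, so the Tbx20 values describe the transcripts that the first probe detects.

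**Figure D3:**
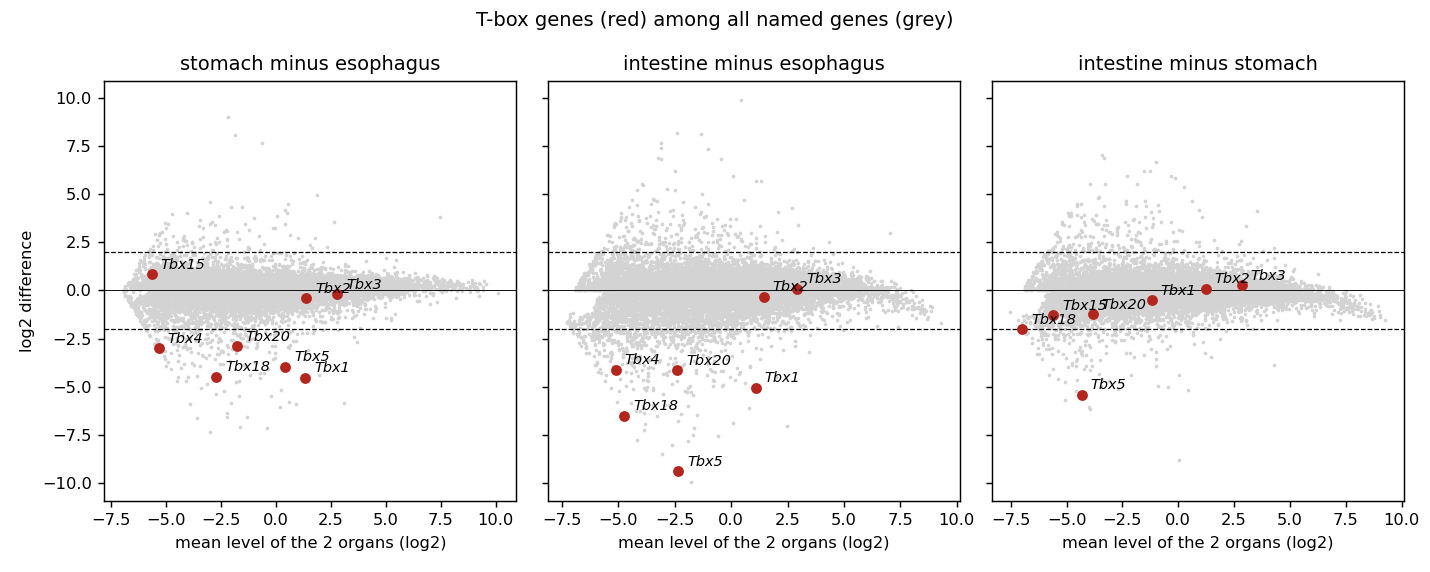
Log2 difference of every named gene (grey) and of the T-box genes (red) against the mean level of the 2 organs compared, with dashed lines at 4-fold. In both comparisons with esophagus, Tbx1, Tbx4, Tbx5, Tbx18 and Tbx20 lie below the lower dashed line, and Tbx2 and Tbx3 lie within the body of genes.

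The remaining 9 T-box genes of the mouse were all represented, and 5 of them, Eomes, Tbr1, Tbx10, Tbx19 and Tbx22, were not well above background in any organ. T, or Brachyury, the founding member of the family and a mesoderm gene, was above background in intestine alone, on 7 of 10 spots at a mean signal of 10.7 units, and no fold could be given. Tbx6, a gene of presomitic mesoderm, lay at −2.37 in esophagus, −1.99 in stomach and −2.34 in intestine, within 2-fold throughout. Tbx21, known from T lymphocytes, stood at −3.07, −4.95 and −5.83 and was 3.68-fold lower in stomach and 6.75-fold lower in intestine, each against esophagus. Mga, which pairs a T-box with a MAX-binding domain, differed by −0.25 (stomach against esophagus), −0.63 (intestine against esophagus) and −0.38 (intestine against stomach) by the probe used, and 1 of its 3 probes put both stomach and intestine more than 2-fold lower than esophagus. Of the family's other genes, Tbx21 was therefore the single one past 4-fold in any comparison.

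Genes of heart muscle moved with the T-box genes that were highest in esophagus, and not with Tbx2, Tbx3 or Tbx15. All 12 heart muscle markers were well above background in esophagus, and stomach and intestine were each at least 4-fold lower for 12 of 12 by the probes used. Second probes were short of 4-fold for Myl3 in both comparisons and for Myh7 in stomach. In units of the 75th percentile, they summed to 133 on the esophagus array, 3.58 on the stomach array and 4.25 on the intestine array. Myl7, an atrial myosin light chain, stood at 6.01, 0.16 and −1.05, and Tnnt2, cardiac troponin T, at 3.49, −2.31 and −3.37. Myl2, a ventricular light chain, was the single one of the 12 not well above background in stomach and in intestine. Tbx5, Tbx18 and Tbx20 are themselves known from heart tissue. The part of heart tissue in their values, and in those of Tbx1, was not tested.

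Markers of trachea and lung moved in part. Of 8 named markers, 7 were above background in esophagus, and 5 in stomach and in intestine. Nkx2-1, the regulator of the respiratory endoderm, stood at −1.16 and Sftpc, a surfactant gene, at −1.80 in esophagus, and neither was well above background in stomach or intestine. Wnt2, a ligand of lung mesenchyme that lies downstream of Tbx5, stood at 1.71 in esophagus, −2.38 in stomach and −4.78 in intestine. Foxp2 and Id2, which are not restricted to lung, were within 2-fold in all comparisons by the probes used, though a second Foxp2 probe fell outside this range. The summed level of the list was 25.2, 22.8 and 23.8 times the 75th percentile. Id2 had the highest level of the list in each organ, at 3.85, 4.11 and 4.39, and weighs most in this sum. The sum therefore hides the differences of Nkx2-1, Sftpc and Wnt2. The part of respiratory tissue in the Tbx4 and Tbx5 values was not tested.

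Most skeletal and branchiomeric muscle markers and part of the pharyngeal endoderm markers stood higher in esophagus as well. In the muscle list stomach lay at least 4-fold below esophagus for 4 of 6 measured genes, as did intestine, the summed level was 4.30, 0.772 and 1.27 times the 75th percentile, and Myog stood at 0.23, −4.97 and −5.72. Myf5 was not well above background in any organ. In the pharyngeal list 3 of 5 measured genes, Pax1, Pax9 and Foxe1, lay at least 4-fold below esophagus in both stomach and intestine, and the summed level was 1.32, 0.524 and 0.352. Of the other members, Nkx2-6 was higher than in esophagus by 1.16 in stomach and 0.96 in intestine, and Hoxa3 differed by −0.02 and −0.46. Both tissues express Tbx1, and their part in its value was not tested.

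Mesothelial markers were set beside Tbx18, and the part of mesothelium in its values was not tested. All 7 were well above background in every organ, 0 were at least 4-fold lower in stomach or in intestine than in esophagus, and the summed level was 4.89, 8.84 and 8.07 times the 75th percentile. Wt1, the regulator of mesothelium, stood at 0.40, 0.99 and 0.48, and Upk3b at −0.82, −0.97 and 0.49. Msln was the most uneven, at −4.21, −1.79 and −4.65. Endothelial markers were within 4-fold in every comparison, with a summed level of 10.4, 8.24 and 12.2. Among urogenital ridge markers Pax8 and Emx2 were not well above background in any organ. Of the 5 measured, 1 was at least 4-fold lower in stomach and in intestine than in esophagus, Foxd1, at 1.93, −5.15 and −5.23. The list's median difference from esophagus was −0.03 in stomach and −0.28 in intestine. Liver markers were past 4-fold higher for all 6 when intestine was set against esophagus, while for stomach their median difference was −1.62 and 1 of 5 was past 4-fold lower.

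**Figure D4:**
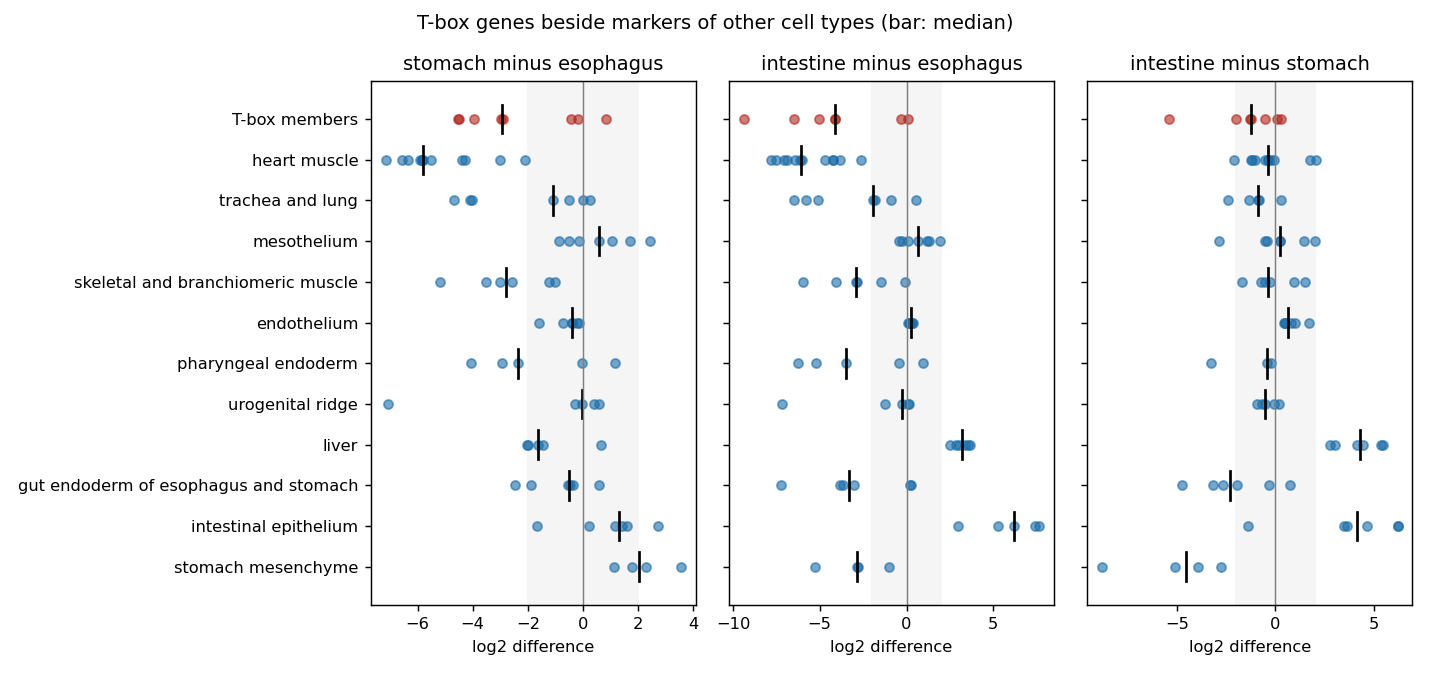
Log2 differences of the T-box genes (red) and of the genes of 11 marker lists (blue) in the 3 comparisons, 1 point per gene with its median as a bar and the band under 4-fold shaded. Heart muscle genes lie to the left of the band in both comparisons with esophagus, and mesothelial genes do not.

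Genes of the pathways around each T-box gene were taken from lists. These lists overlap with each other and with the marker lists above. Nppa, Myh6, Wnt2, Pax1 and Pax9, for example, are each counted in several lists, so the counts are not independent. In the list for Tbx4 and Tbx5 in lung and limb mesenchyme, 1 of 14 genes was at least 4-fold lower in stomach than in esophagus, namely Wnt2, and 0 were at least 4-fold higher. Fgf10, the mesenchymal growth factor that Tbx4 and Tbx5 are known to sustain in lung, had levels of −1.38, 0.19 and −1.11, and was higher in stomach than in esophagus by 1.58 log2 units. For intestine against esophagus 2 of 14 were at least 4-fold lower, Wnt2 (−6.49) and Pitx1 (−2.31), a hindlimb activator of Tbx4, and 1 was higher, the FGF target Etv4 (2.01). Between intestine and stomach 2 of 14 were at least 4-fold lower, Pitx1 (−3.87) and Wnt2 (−2.40).

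In the Tbx1 pharyngeal list, 4 of 16 measured genes were at least 4-fold lower in stomach than in esophagus, among them Pax9 (−2.94) and, as bounds, Pax1 and Foxe1, and 0 were at least 4-fold higher. Intestine was at least 4-fold below esophagus for 6 of 17, which included Lhx2 (−3.16) and Msc (−2.93), regulators of branchiomeric muscle. For intestine against stomach 2 of 15 were, Pax9 at a bound of −3.31 and Isl1 (−2.77). Fgf8, a ligand downstream of Tbx1, was within 2-fold for stomach against esophagus (−0.50) and lower by 1.30 in intestine.

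In the list of Tbx2 and Tbx3 repression targets and partners, 4 of 14 measured genes were at least 4-fold lower in stomach than in esophagus, among them the natriuretic peptide gene Nppa (−5.50) and, as bounds, Bmp2 (−2.53) and Shox2 (−2.37). The gap junction genes Gja1 and Gja5 were within 2-fold in all comparisons, as was the cell cycle inhibitor Cdkn1a. Cdkn2a, a classic target, was not well above background in any organ. For intestine against esophagus 3 of 14 were at least 4-fold lower, Nppa and Shox2 among them, and Dkk2, a Wnt antagonist, was higher by 3.32. Dkk2 was also higher in intestine than in stomach by 3.14, the 1 gene of 13 past 4-fold there.

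In the list of cardiac partners and targets of Tbx5 and Tbx20, 2 of 15 genes, Myh6 (−6.58) and Nppa, were at least 4-fold lower in stomach than in esophagus, and Hand1 was higher at a bound of 2.31. Nkx2-5, which is expressed in stomach mesenchyme as well as heart, stood at −0.14, 0.99 and −2.96. Gata4, Gata5 and Gata6 were within 2-fold for both comparisons with esophagus by the probes used. Another Gata6 probe gave −1.43 for stomach and −2.79 for intestine against esophagus, and a further one −0.37 and −0.17. For intestine against esophagus 3 of 15 were lower, Myh6, Nppa and Nkx2-5, and 2 were higher, Hand1 at a bound of 8.13 and Hand2, just past 4-fold. For intestine against stomach Nkx2-5 (−3.95) and Isl1 were lower and Hand1 (5.82) higher.

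In the list of mesenchymal and somitic genes around Tbx15 and Tbx18, 4 of 9 measured genes were at least 4-fold lower in stomach than in esophagus, and 5 of 9 were in intestine. Prrx1, a homeobox gene of limb and craniofacial mesenchyme, stood at 3.01, −0.09 and −1.81, and all 4 of its probes were past 4-fold lower in stomach. Prrx2 stood at 3.20, 1.14 and 0.33 and Twist1 at 1.17, −1.04 and −1.51. The list medians were −1.80 for stomach and −2.68 for intestine against esophagus. For intestine against stomach 0 of 7 passed 4-fold.

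The genes whose 3 levels, after centring, lay nearest to those of a member were searched among 12694 genes measured in all organs, over 3 arrays. For Tbx1 these were Tcap and Tnnc2, both of striated muscle, at Euclidean distances of 0.17 and 0.18 log2 units, and 7 genes lay within 0.5. For Tbx20 they were Iigp1 (0.098) and Cyp26a1 (0.14), which degrades retinoic acid, with 12 genes within 0.5. For Tbx2 and Tbx3 the search had little meaning, since 4479 and 6365 genes lay within 0.5. Tbx4, Tbx5, Tbx15 and Tbx18 were not searched, because each was not well above background on at least 1 array.

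The size of a difference between organs depended on the probe and the correction more than the direction did. The SD between probes of 1 gene had a median of 0.25, 0.46 and 0.31 log2 units in the 3 comparisons, in the order used above, beside a median SD between repeated spots of 0.074 to 0.087 for probes above background and of 0.355 to 0.473 for dim probes. The 5 members past 4-fold in both comparisons with esophagus had differences below 0 under every one of the 8 alternatives that gave a value. Tbx1, Tbx5 and Tbx18 kept at least a 4-fold difference in both comparisons under each of these. Some of the alternatives, such as the changes of filter, leave a value measured on both arrays unchanged.

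**Figure D5:**
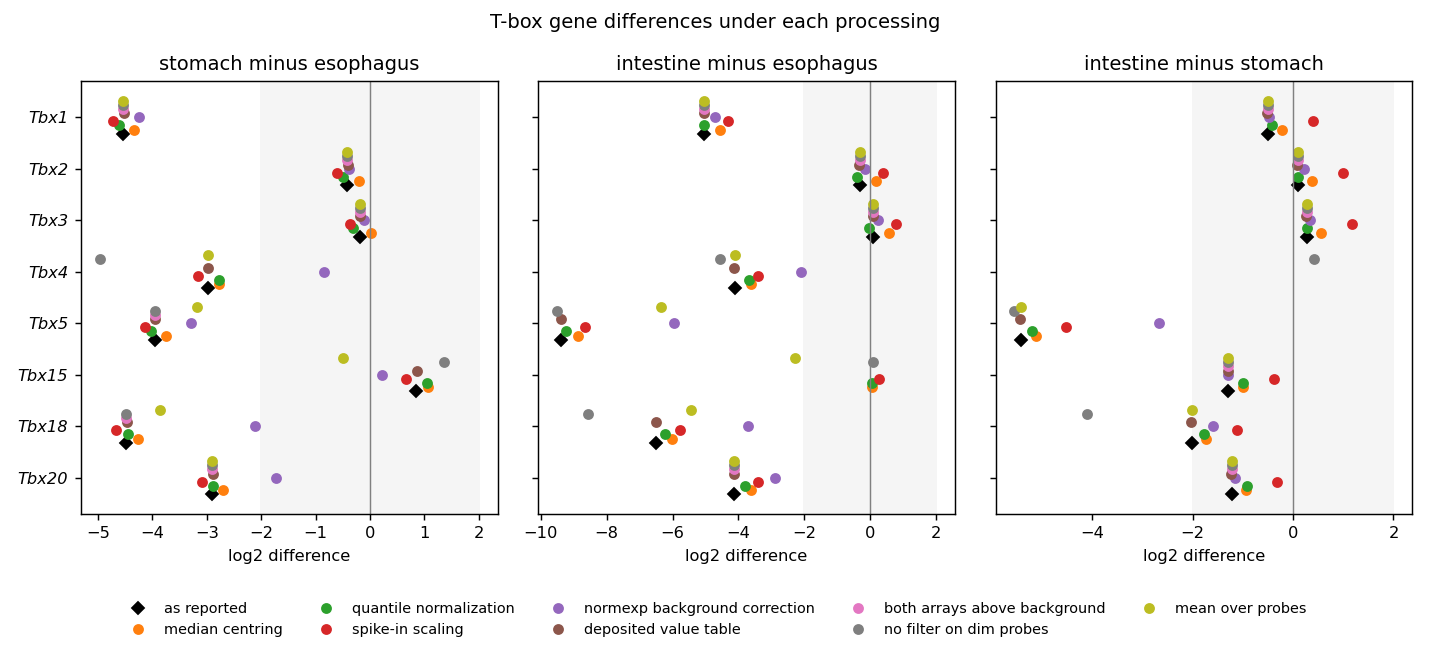
Log2 difference of each T-box gene under the values as reported (black diamonds) and 8 alternative processings (coloured circles), with the band under 4-fold shaded. Tbx1, Tbx5 and Tbx18 stay left of the band in both comparisons with esophagus, while Tbx2 and Tbx3 lie near 0 with signs that change between processings.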

How the data were processed

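RNA was labelled with Cy3 and read on 1-colour Agilent arrays of 45018 spots. Per the file headers, the deposited spot intensity values came from Agilent Feature Extraction 10.5.1.1, and the headers carry statistics of background subtraction and spatial detrending. All 3 arrays were on 1 slide, so position on it and organ cannot be told apart. A deposited table of log2 values, whose scale the sources used here do not state, matched log2 signal minus the 75th percentile within 0.01 units for at least 99.8% of probes after removal of a constant per array, and its column medians were −2.97, −3.17 and −3.47.

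From the processed signal, log2 was taken and the 75th percentile of each array's 43379 spots outside the controls was subtracted. Spots of a probe were averaged, without those marked as outliers. The error is the software's signal error. No spot was saturated. Accessions were matched to RefSeq (GRCm38.p6) transcripts, naming 24342 of 41112 probes; 16770 stayed unnamed. A gene used its probe of highest mean level, and every member probe is shown. A gene entered a comparison if well above background on 1 of the 2 arrays. Where the other was not, the difference is a bound against the higher of that array's lowest measured signal and the probe's own. Bounds do not take in the error of the dim spot. Where the probe's own signal was the higher, the value is a difference from a dim signal and not a strict limit. This holds for the second Tbx5 probe, Foxe1, Hand1 against esophagus, and Bmp2 in stomach. The calling step was tested on simulated data. The members and gene lists were chosen with earlier results of these data known. List genes were named when at least 4-fold apart, up to the 4 largest per comparison, or when at background on every array; like patterns were the 2 nearest genes. Other list genes named were chosen after their values were seen, and some list genes are not reported here by name. Tools were Python 3.11.15, pandas 2.3.3 and limma 3.58.1 in R 4.3.3.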

Additional observations from a re-analysis of the deposited data

How the results depend on the processing

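No paired analysis was possible because each organ has 1 array, and no array could be left out. The alternatives were median centring, quantile normalization, scaling to spike-in controls, normexp correction, the deposited value table, signal above background on both arrays, no filter on dim probes, and the mean over a gene's probes. Of 169 alternative values of single members, 127 moved by less than the median SD between probes and 42 by more, and 0 of those at least 4-fold apart changed sign. Part of the 127 could not move. Both changes of filter leave a value measured on both arrays as it was, and so does the mean for a gene with a single usable probe. The deposited table differs from the values used mainly by a constant per array, so these counts do not measure robustness. The count of members at least 4-fold apart for stomach against esophagus fell from 5 to 3 with normexp. For intestine against esophagus it fell from 5 to 2 with signal required on both arrays, where bounds are left out. For intestine against stomach it fell from 2 to 1 with median centring, quantile normalization, spike-in scaling and normexp, and to 0 with signal required on both arrays. The cause was not tested, beyond bounds being left out.

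Over all genes, 311, 788 and 376 were at least 4-fold apart for stomach against esophagus, intestine against esophagus and intestine against stomach. With normexp these were 87, 308 and 111. With no filter the first was 534 and the third 595, and with spike-in scaling the third was 654. The share of these that were higher in the first organ, 30.2%, 32.1% and 52.7%, became 42.1%, 60.5% and 67.9% with median centring, 39.0%, 50.2% and 64.0% with quantile normalization, and 23.5%, 74.0% and 90.1% with spike-in scaling. Spike-in scaling moved the median of all genes by −0.18, 0.69 and 0.88 log2 units, and median centring by 0.21, 0.48 and 0.28. Signal over background limits Tbx4, Tbx15, the first Tbx18 probe in stomach and the second probes of Tbx5, Tbx18 and Tbx20.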

Other observations

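Corepressors and cofactors that T-box factors are known to work with were measured for 9 of the 10 genes listed, and all 9 were above background in each organ. The Groucho-type corepressor gene Tle1 stood at 4.19 in esophagus, 4.48 in stomach and 2.94 in intestine, and Tle4 went the other way, at 2.62, 3.91 and 4.15. Tle2 stood at −0.06, −0.59 and −1.44 and Tle3 at −1.52, −0.97 and −0.45. Wwtr1, the TAZ coactivator of Tbx5, was within 2-fold in all comparisons (−0.25, −0.27 and −0.01). Lmcd1, a LIM protein gene, was the 1 gene of the list past 4-fold, lower in stomach than in intestine by 2.88 log2 units, and it also stood 1.96 lower in stomach than in esophagus. None was at least 4-fold apart in the comparisons with esophagus.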
